A study of Homo sapiens with 9 samples.

Results

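LPS was compared with control in PMA-primed THP-1 cells, a wild-type human monocytic leukaemia line, by sequencing of poly(A)-enriched RNA. Cells of the LPS group (replicates 4 to 6) received lipopolysaccharide, a component of the bacterial outer membrane, at 1 µg/mL, and cells of the control group (replicates 1 to 3) received none. Both groups had first been given PMA, a phorbol ester that moves THP-1 towards a macrophage state, at 500 nM for 4 h, followed by 24 h of rest, so neither group shows the line without PMA. How long the cells were exposed to LPS is not stated in the labels used here. The comparison uses 6 of the 9 libraries of the series, and the other 3, from cells given LPS with PD (panaxadiol, per the title of the series), are not described. Of 34643 genes in the deposited table, 13247 (38.2%) had a value of at least 1 FPKM in at least 3 of the 6 libraries and were tested, 10813 of them protein-coding. FPKM are fragments scaled to the length of the gene and to the fragment total of the library. All cells are of 1 line, and the labels do not describe the replicates as separate cultures, so p-values reflect only how far these libraries differ among themselves, possibly for technical reasons.

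LPS is taken up by CD14, handed to the complex of TLR4 and LY96 (MD-2), and signalled through the adaptors MYD88 and TICAM1 (TRIF). The first branch activates NF-kB, a family of transcription factors held in the cytoplasm by IkB proteins, and the second activates interferon regulatory factors and the release of type I interferon, which then acts back on the same cells. In macrophages these signals are best known for cytokine genes, which are set aside here in favour of receptors, enzymes, transcription factors and repressed genes. Genes counted as called had an adjusted p below 0.05 from limma on log2(FPKM + 1), with Benjamini-Hochberg adjustment over all genes tested. Log2 fold changes, and the counts of genes changed at least 2-fold, are LPS over control on that scale, which understates the change of low genes. The fold given for a single gene is the ratio of its mean FPKM in the 2 groups. The words "rose" and "fell" are used of called genes only.

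Stretches of 250 bases before a RefSeq start of 5 genes are printed for genes that moved differently. Such a start can differ from the gene position in the deposited table. The windows of CCR2 and ISG15 lie wholly, and that of TLR4 mostly, inside the gene as positioned there. Those positions begin at 46353734 for CCR2, 1001138 for ISG15 and 117704175 for TLR4. They are from RefSeq on GRCh38.p14, written 5′ to 3′ on the strand of the gene. Capitals mark matches, on either strand, to the core of the interferon-stimulated response element (GAAANNGAA), to a kappa B motif (GGGNNTTTC) or to a PU.1 motif (GAGGAAGT). IFIH1, which encodes the RNA sensor MDA5, is shown because it rose and its window at chr2:162318685-162318934, minus strand, holds 4 matches to the interferon element and 1 to kappa B. ISG15, a ubiquitin-like protein induced by interferon, is shown at chr1:1013247-1013496, plus strand, for its 3 interferon element matches in a row. NFKBIA, the IkB protein that feeds back on NF-kB, is shown at chr14:35404750-35404999, minus strand, for its 3 kappa B matches and 1 interferon element match. TLR4, the LPS receptor, is shown at chr9:117704153-117704402, plus strand, as a gene that was not called and has 2 PU.1 matches. CCR2, a chemokine receptor that fell, is shown at chr3:46353861-46354110, plus strand. This window holds 1 match to the interferon element, so a match in such windows was not limited to rising genes.
IFIH1: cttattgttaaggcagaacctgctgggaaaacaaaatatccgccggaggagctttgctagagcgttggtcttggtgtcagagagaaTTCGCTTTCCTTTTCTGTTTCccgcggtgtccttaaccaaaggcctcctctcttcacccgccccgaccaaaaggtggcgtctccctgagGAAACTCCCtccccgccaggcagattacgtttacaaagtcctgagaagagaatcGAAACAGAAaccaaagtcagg
ISG15: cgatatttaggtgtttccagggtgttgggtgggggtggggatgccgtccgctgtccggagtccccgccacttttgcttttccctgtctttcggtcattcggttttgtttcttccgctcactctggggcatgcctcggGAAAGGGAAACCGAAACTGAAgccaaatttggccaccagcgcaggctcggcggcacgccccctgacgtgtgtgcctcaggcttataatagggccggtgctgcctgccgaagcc
NFKBIA: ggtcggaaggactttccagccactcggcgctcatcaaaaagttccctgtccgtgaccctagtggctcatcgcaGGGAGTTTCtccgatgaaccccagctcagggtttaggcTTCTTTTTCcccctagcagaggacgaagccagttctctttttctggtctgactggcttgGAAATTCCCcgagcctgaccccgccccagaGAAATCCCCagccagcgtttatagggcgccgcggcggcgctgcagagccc
TLR4: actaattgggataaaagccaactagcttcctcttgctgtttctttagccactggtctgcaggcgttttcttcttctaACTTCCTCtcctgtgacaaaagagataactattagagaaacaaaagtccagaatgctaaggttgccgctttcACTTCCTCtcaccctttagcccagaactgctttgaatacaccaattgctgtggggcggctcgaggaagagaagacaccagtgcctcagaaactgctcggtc
CCR2: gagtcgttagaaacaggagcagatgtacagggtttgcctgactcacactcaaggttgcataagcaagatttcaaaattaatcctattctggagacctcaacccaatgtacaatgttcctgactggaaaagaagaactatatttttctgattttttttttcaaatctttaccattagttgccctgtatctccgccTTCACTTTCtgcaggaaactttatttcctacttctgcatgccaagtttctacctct

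The levels of these genes follow. IFIH1 had 33.3, 33.7 and 34.6 FPKM in LPS libraries and 2.33, 2.80 and 2.83 FPKM in control libraries. ISG15 had 364, 382 and 407 FPKM in LPS libraries and 9.70, 15.1 and 12.5 FPKM in control libraries. NFKBIA had 207, 221 and 225 FPKM in LPS libraries and 17.5, 15.1 and 16.01 FPKM in control libraries. Every LPS library was above every control library for these 3 genes, and all 3 rose, as did 26.6% of all genes tested (log2 fold changes 3.26 with SE 0.060 for IFIH1, 4.86 with SE 0.13 for ISG15 and 3.67 with SE 0.056 for NFKBIA). CCR2 had 15.4, 13.8 and 14.2 FPKM in LPS libraries and 61.7, 60.5 and 60.03 FPKM in control libraries, a fall of 4.20-fold with no overlap. TLR4 had 1.38, 1.49 and 1.14 FPKM in LPS libraries and 1.27, 1.22 and 1.25 FPKM in control libraries. The 2 groups overlapped for TLR4, its levels were close to the limit of 1 FPKM, and it was not called (limma adjusted p = 0.594).

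Over the tested genes, 9318 (70.3%) matched a promoter window of the RefSeq table by name. A match to the interferon element stood in 13.61% of the windows of 610 genes that rose at least 2-fold, in 29.41% of the 102 genes that rose at least 8-fold, in 6.29% of the 445 genes that fell at least 2-fold, in 5.75% of all tested genes and in 6.88% of all 34961 windows of the table. For the kappa B motif the shares were 8.85% of genes that rose at least 2-fold, 15.69% of those that rose at least 8-fold, 3.60% of those that fell, 4.49% of all tested genes and 4.18% of the table. The PU.1 motif stood in 3.93% of genes that rose at least 2-fold (24 windows) and 6.86% of those that rose at least 8-fold (7 windows). It stood in 2.92% of those that fell (13 windows), 2.33% of all tested genes and 2.17% of the table. Thus the shares were highest in the genes with the largest rises for each motif and close to all genes in those that fell. In the largest risers the PU.1 share rests on 7 windows, against 30 for the interferon element. These shares are descriptions without a test. Both the interferon element and the kappa B motif stood in 40 windows of tested genes, and their letters overlapped in 6 of them. The sets also differ in base composition, with a median GC content of 54.2% in the 102 largest risers, 63.6% in genes that rose at least 2-fold, 65.2% in genes that fell and 65.2% in all tested genes. Windows with 5 or fewer CpG made up 48.0% of the 102 largest risers, 26.1% of genes that rose at least 2-fold, 20.9% of genes that fell and 9.00% of all tested genes. The part of base composition in the motif shares was not tested.

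**Figure D1:**
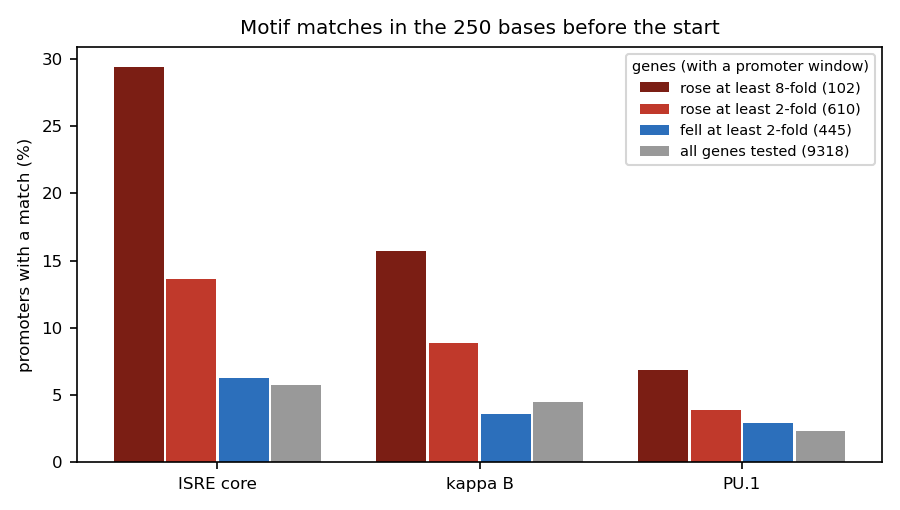
Share of promoter windows (250 bases before a RefSeq start of the gene, in percent) with at least 1 match to each of 3 motifs, for genes that rose at least 8-fold, rose at least 2-fold, fell at least 2-fold and for all tested genes. The interferon element core stood in 29.41% of the largest risers and 5.75% of all tested genes.

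Of the 13247 genes tested, 8833 (66.7%) were called, 3518 (26.6%) higher and 5315 (40.1%) lower with LPS. At least 2-fold, 885 genes (6.68%) were higher and 713 (5.38%) lower. Which of these counts is the larger depends on the treatment of low values, since a pseudocount of 0.1 gave 1090 higher and 1256 lower, and voom on the recovered fragments gave 1108 higher and 1338 lower. On the log2 scale 116 called rises lay between 3 and 5 and 30 above 5, against 13 falls of 3 or more. The libraries of the groups did not overlap in 71.1% of the tested genes. Median-of-ratios scaling of the libraries, which centres the median change of -0.09 at 0, gave 4399 higher and 4270 lower. No gene called under both scalings had the opposite sign, 1045 genes lower as deposited lost their call, and 881 genes gained a call as higher. The split between rises and falls therefore depends on the scaling.

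The genes that rose at least 2-fold held 16.11, 16.53 and 17.02% of the summed FPKM in LPS libraries and 3.68, 3.78 and 3.70% in control libraries. Those that fell at least 2-fold held 2.55, 2.39 and 2.39% in LPS libraries and 8.07, 8.22 and 8.08% in control libraries. At the extremes, 467 genes were below 1 FPKM in all control libraries and at 1 FPKM or more in all LPS libraries, and 583 genes showed the reverse. Of the 467, 67 reached 10 FPKM in every LPS library, among them 15 cytokines or chemokines, 25 members of the other lists and 27 genes of no list. Of the 583, only SERPINB2 and SERPINB10 had 10 FPKM or more in every control library. Reaching 10 FPKM was thus more frequent among the genes that crossed 1 FPKM upwards than a control level of 10 FPKM was among those that crossed it downwards.

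**Figure D2:**
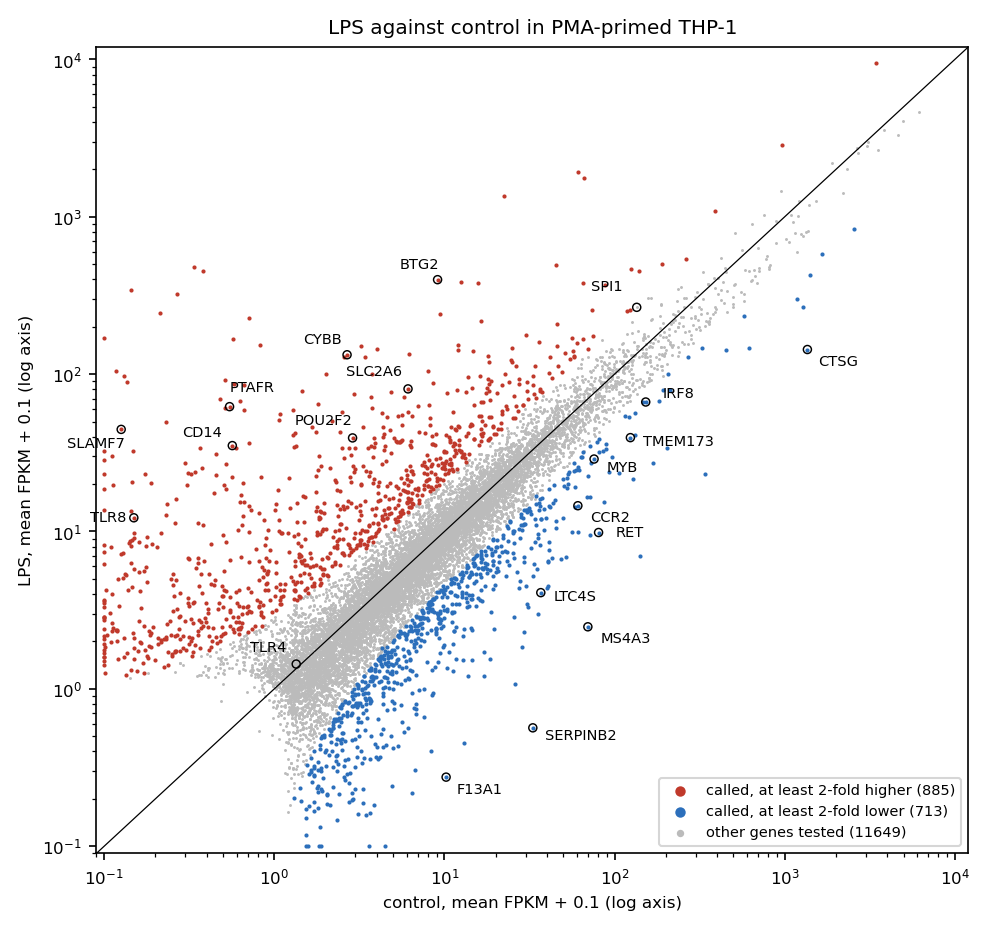
Mean FPKM of 3 LPS libraries against mean FPKM of 3 control libraries for 13247 genes (both log axes, 0.1 added, line at equal level), with called changes of at least 2-fold in red (885 higher) and blue (713 lower). Named genes are ringed, among them PTAFR and SLAMF7 far above the line, TLR4 on it, and F13A1 and SERPINB2 far below it.

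The LPS receptor complex differed in its parts. CD14, the co-receptor that binds LPS (ENSG00000170458, GRCh38 chr5:140631728-140633701, minus strand), had 33.7, 34.5 and 36.9 FPKM in LPS libraries and 0.632, 0.305 and 0.462 FPKM in control libraries (log2 fold change 4.63, SE 0.085). LY96, the subunit of the TLR4 complex that holds the lipid, had 5.78, 4.54 and 5.28 FPKM in LPS libraries and 0, 0.105 and 0 FPKM in control libraries, where at most 1 fragment per library was recovered. Both genes were near or at 0 in every control library and clearly present in every LPS library, while TLR4 stayed near 1 FPKM in both. MYD88 averaged 31.9 ± 1.79 FPKM in LPS libraries and 10.1 ± 0.466 FPKM in control libraries (SD, n = 3 each), and TICAM1 averaged 12.8 FPKM in LPS libraries and 6.10 FPKM in control libraries. Both adaptors rose, MYD88 by 3.17-fold and TICAM1 by 2.10-fold. The 2 kinases named next have little or no catalytic activity, and they differed in size of change. IRAK2, which sustains signalling downstream of MYD88, averaged 18.6 FPKM in LPS libraries and 0.423 FPKM in control libraries, and IRAK3 (IRAK-M), an inhibitor of the pathway, averaged 30.1 FPKM with LPS and 21.6 FPKM in control, a rise of 1.39-fold. TLR2, the partner receptor for bacterial lipopeptides, averaged 39.2 FPKM with LPS and 18.3 FPKM in control, and TLR1 averaged 4.31 FPKM with LPS and 0.596 FPKM in control; these 2 were chosen after their values were seen.

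In the LPS receptor and signalling list 21 of 39 tested (53.8%) rose and 7 (17.9%) fell, against 26.6% and 40.1% of all genes tested. Changes of at least 2-fold were 10 rises (25.6%) and 1 fall (2.6%), against 6.68% and 5.38%. The median log2 fold change was 0.22, against -0.09 over all genes tested. The 1 member that fell at least 2-fold was SIGIRR, an inhibitory member of the IL-1 receptor family, with 2.61, 2.96 and 2.40 FPKM in LPS libraries and 9.08, 9.66 and 9.61 FPKM in control libraries. TAB1, a subunit of the TAK1 kinase complex, fell by 1.45-fold and LY86 (MD-1), the partner of the TLR4-related protein CD180, by 1.37-fold. Falls in this list were thus small apart from SIGIRR.

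Sensors of nucleic acids moved in both directions. TLR8, an endosomal receptor for single-stranded RNA, had 12.4, 12.3 and 11.6 FPKM in LPS libraries and 0.104, 0.0294 and 0.0143 FPKM in control libraries. IFI16, a DNA sensor, had 41.6, 42.4 and 40.6 FPKM in LPS libraries and 4.35, 4.53 and 4.11 FPKM in control libraries, a rise of 9.58-fold. TMEM173 (STING; ENSG00000184584, GRCh38 chr5:139475534-139482935, minus strand), the adaptor through which the cyclic dinucleotide made by cGAS signals, had 43.7, 36.2 and 38.3 FPKM in LPS libraries and 122, 126 and 124 FPKM in control libraries. The RNA sensors IFIH1 and TLR8 and the DNA sensor IFI16 were thus higher in every LPS library while STING was lower in every LPS library, by 3.14-fold (log2 fold change -1.63, SE 0.064, limma adjusted p = 4.34e-07). Other falls were those of NLRX1, a mitochondrial NOD-like protein (8.71 FPKM in LPS libraries and 20.2 FPKM in control libraries), and of PYCARD (ASC), the inflammasome adaptor (36.1 FPKM with LPS and 65.7 FPKM in control). NLRC3, a NOD-like protein chosen after its values were seen, fell at low levels, with 0.243 FPKM in LPS libraries and 1.72 FPKM in control libraries. In the list 16 of 24 tested members (66.7%) rose and 7 (29.2%) fell, against 26.6% and 40.1% of all genes tested. Of the 24, 12 rose and 3 (TMEM173, NLRX1 and NLRC3) fell at least 2-fold, against 6.68% and 5.38% of all genes tested. The median log2 fold change of these sensors was 1.01, against -0.09 over all genes tested.

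Receptors for cytokines and growth factors rose more often than they fell, with 49 rising and 15 falling of 72 tested, 27 and 5 at least 2-fold, and a median log2 fold change of 0.63. Rises made 68.1% of the tested members and falls 20.8%, against 26.6% and 40.1% of all genes tested. Those of at least 2-fold made 37.5% and 6.9%, against 6.68% and 5.38%, so such falls were near the share of all genes. TNFRSF18 (GITR), a receptor of the TNF family, had 18.7, 21.2 and 21.4 FPKM in LPS libraries and 0, 0.0467 and 0.0908 FPKM in control libraries. IL7R, the receptor chain for interleukin-7, had 20.1, 24.4 and 22.1 FPKM in LPS libraries and 0.609, 0.517 and 0.277 FPKM in control libraries. IL10RA, the ligand-binding chain for the anti-inflammatory interleukin-10, had 31.8, 34.7 and 35.7 FPKM in LPS libraries and 2.33, 2.69 and 2.19 FPKM in control libraries. These 3 receptors were low or absent in control cells and above 18 FPKM in each LPS library. CD40, the receptor for CD40 ligand, averaged 34.2 FPKM in LPS libraries and 3.75 FPKM in control libraries and was chosen after its values were seen.

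The 5 receptors of this list that fell at least 2-fold include receptors of early blood cells. FLT3, a tyrosine kinase receptor of progenitors, had 9.85, 8.02 and 9.15 FPKM in LPS libraries and 35.0, 34.6 and 36.8 FPKM in control libraries. CSF3R, the receptor for the granulocyte growth factor G-CSF, had 8.42, 7.26 and 6.40 FPKM in LPS libraries and 22.9, 23.4 and 23.8 FPKM in control libraries. LRP5, a co-receptor for Wnt ligands, averaged 3.60 FPKM in LPS libraries and 14.5 FPKM in control libraries. Falls were 3.94-fold for FLT3, 3.17-fold for CSF3R and 4.04-fold for LRP5, with no overlap between groups. The other two, chosen after their values were seen, were the stem cell factor receptor KIT (0.272 FPKM with LPS and 2.21 FPKM in control) and the erythropoietin receptor EPOR (1.02 FPKM with LPS and 3.20 FPKM in control). CSF1R, the receptor for the macrophage growth factor M-CSF and also chosen after its values were seen, had 73.2, 80.7 and 81.8 FPKM in LPS libraries and 30.5, 30.7 and 29.9 FPKM in control libraries, and so rose while the G-CSF receptor fell.

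G protein-coupled receptors held some of the largest changes of either sign. PTAFR, the receptor for platelet-activating factor (ENSG00000169403, GRCh38 chr1:28147166-28193936, minus strand), had 60.9, 62.8 and 62.4 FPKM in LPS libraries and 0.362, 0.380 and 0.595 FPKM in control libraries (log2 fold change 5.45, SE 0.066, limma adjusted p = 2.04e-09). C3AR1, the receptor for the complement fragment C3a, averaged 17.5 ± 1.48 FPKM in LPS libraries and 0.341 ± 0.108 FPKM in control libraries (SD, n = 3 each). GPR84, a receptor for medium-chain fatty acids, averaged 13.5 ± 1.32 FPKM in LPS libraries and 0.634 ± 0.220 FPKM in control libraries. All 3 were below 1 FPKM in every control library and above 12 FPKM in every LPS library. Against these, GPR160, a receptor with no settled ligand, had 10.8, 9.13 and 9.42 FPKM in LPS libraries and 61.7, 61.4 and 60.4 FPKM in control libraries. CXCR2, a neutrophil chemokine receptor, had 1.28, 1.01 and 1.30 FPKM in LPS libraries and 11.6, 11.5 and 10.3 FPKM in control libraries. With CCR2, GPR160 and CXCR2 lay lower in each LPS library than in any control library, by 6.26-fold for GPR160 and 9.33-fold for CXCR2.

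The chemokine receptors did not move together. CCR7, which guides cells to lymph nodes, averaged 5.71 FPKM in LPS libraries and 0.0496 FPKM in control libraries, while CXCR4, the receptor for CXCL12, averaged 13.6 FPKM in LPS libraries and 35.8 FPKM in control libraries; these 2 were chosen after their values were seen. In the whole list 29 of 55 tested receptors (52.7%) rose and 23 (41.8%) fell, 18 and 11 at least 2-fold. Over all genes tested 26.6% rose and 40.1% fell, so the share of falls of any size was near that of all genes. The share at least 2-fold higher was 32.7% and the share at least 2-fold lower was 20.0%, against 6.68% and 5.38% of all genes tested. The median log2 fold change of 0.39 thus stands between many changes in both directions.

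Among lectin, Fc, immunoglobulin-like and other surface receptors 38 of 59 (64.4%) rose and 17 (28.8%) fell, against 26.6% and 40.1% of all genes tested. Their median log2 fold change was 0.77. At least 2-fold, 26 (44.1%) rose and 8 (13.6%) fell, against 6.68% and 5.38% of all genes tested. SLAMF7, a self-binding receptor of the SLAM family, had 41.0, 45.6 and 46.8 FPKM in LPS libraries and 0, 0.0132 and 0.0644 FPKM in control libraries. SLAMF8, another member of that family, averaged 12.6 FPKM in LPS libraries and 0.131 FPKM in control libraries. SIGLEC1, a sialic acid-binding receptor of macrophages known to respond to interferon, had 45.9, 45.9 and 46.1 FPKM in LPS libraries and 1.35, 1.48 and 1.87 FPKM in control libraries. All 3 were above 11 FPKM in each LPS library and below 2 FPKM in each control library. CD83, a maturation marker of dendritic cells chosen after its values were seen, averaged 40.7 FPKM in LPS libraries and 1.18 FPKM in control libraries.

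TREM2, a lipid-sensing receptor of macrophages and microglia, had 20.1, 18.5 and 20.9 FPKM in LPS libraries and 55.9, 52.02 and 50.6 FPKM in control libraries. LILRA2, an activating leukocyte receptor, averaged 2.32 FPKM in LPS libraries and 9.46 FPKM in control libraries, and the tetraspanin CD37 averaged 18.9 FPKM in LPS libraries and 52.1 FPKM in control libraries. Falls were 2.67-fold for TREM2, 4.08-fold for LILRA2 and 2.76-fold for CD37. The LILR genes resemble one another, so the level of LILRA2 is uncertain where reads fit several copies.

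Adhesion genes showed a similar mix, with 25 of 43 (58.1%) rising and 12 (27.9%) falling, against 26.6% and 40.1% of all genes tested. Changes of at least 2-fold were 16 rises (37.2%) and 4 falls (9.3%), against 6.68% and 5.38%. ICAM1, the ligand of leukocyte integrins, had 79.9, 81.7 and 96.2 FPKM in LPS libraries and 0.429, 0.552 and 0.453 FPKM in control libraries. CD44, the hyaluronan receptor, had 47.9, 53.8 and 56.9 FPKM in LPS libraries and 8.50, 7.91 and 7.98 FPKM in control libraries. TNFAIP6 (TSG-6), a secreted protein that binds hyaluronan, averaged 19.7 FPKM in LPS libraries and 0.0131 FPKM in control libraries, with a fragment recovered in only 1 control library. A hyaluronan receptor and a hyaluronan-binding protein were thus both higher in every LPS library. SELPLG (PSGL-1), the selectin ligand for rolling on vessel walls, had 10.7, 8.80 and 9.15 FPKM in LPS libraries and 35.7, 35.9 and 34.8 FPKM in control libraries. EMB (embigin), a partner of lactate transporters, averaged 67.4 FPKM in LPS libraries and 182.5 FPKM in control libraries, and the integrin subunit ITGA7 averaged 3.09 FPKM with LPS and 8.38 FPKM in control. CEACAM6, a granulocyte adhesion molecule chosen after its values were seen, completed the 4 falls with 0.132 FPKM in LPS libraries and 3.22 FPKM in control libraries.

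**Figure D3:**
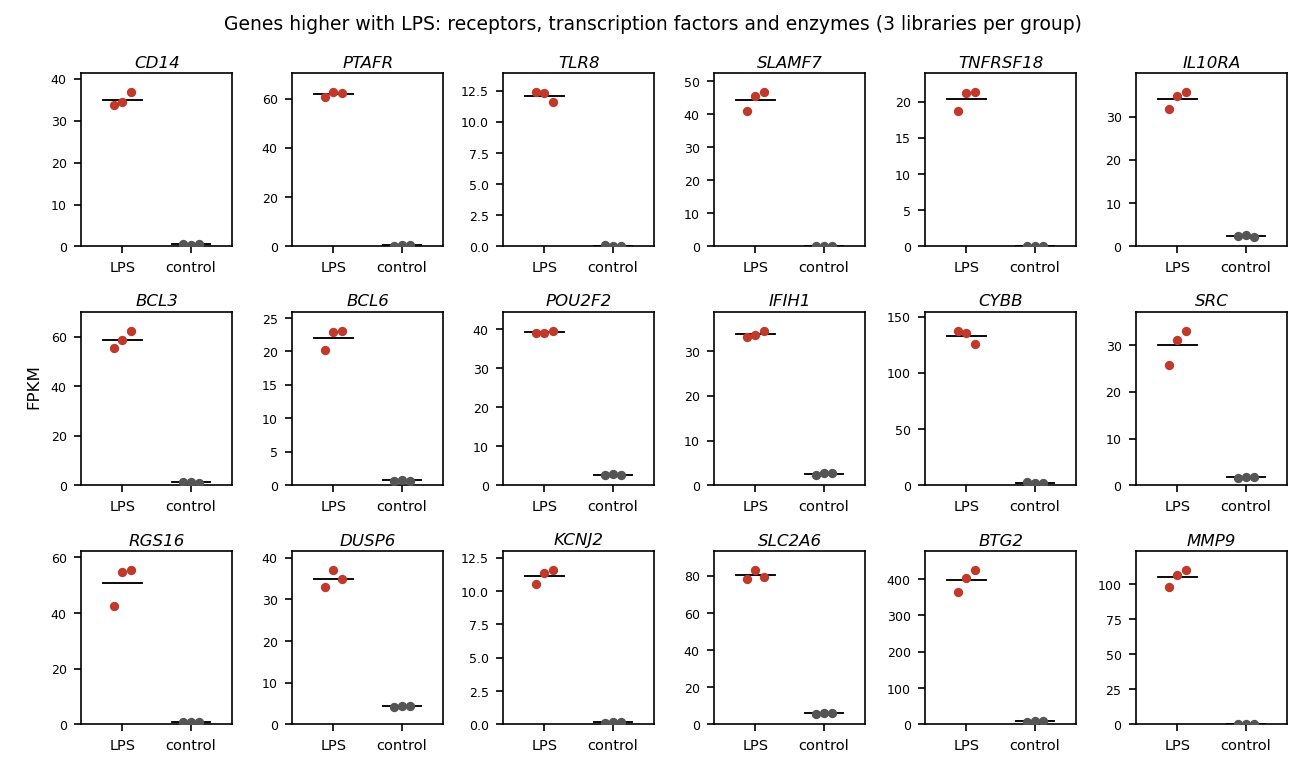
FPKM in each of 3 LPS libraries (red) and 3 control libraries (grey) for 18 genes higher with LPS, with the mean as a line and each axis starting at 0. In every panel all LPS points lie above all control points; PTAFR, for example, is at 60.9 to 62.8 with LPS and at 0.362 to 0.595 in control.

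Among metabolic enzymes 103 of 187 rose and 53 fell, with a median log2 fold change of 0.20. These are shares of 55.1% and 28.3%, against 26.6% and 40.1% of all genes tested, and at least 2-fold 37 (19.8%) rose and 15 (8.0%) fell, against 6.68% and 5.38%. CYBB (gp91phox), the catalytic subunit of the phagocyte NADPH oxidase, had 137, 136 and 125 FPKM in LPS libraries and 2.77, 2.39 and 2.57 FPKM in control libraries, a rise of 51.5-fold. IL4I1, a secreted amino acid oxidase, had 209.5, 234 and 242 FPKM in LPS libraries and 0.908, 0.424 and 0.510 FPKM in control libraries. IDO1, which opens the tryptophan ring, had 20.8, 22.3 and 25.9 FPKM in LPS libraries and no fragment in any control library, which puts its rise at 410-fold or more if each control library is taken at 3 fragments, a bound for counting error only. An enzyme that makes superoxide and 2 that degrade amino acids were thus the largest rises of this list among genes eligible for naming. Of the genes given whatever their values, NAMPT, which makes the NAD precursor nicotinamide mononucleotide, averaged 9.92 FPKM in LPS libraries and 3.43 FPKM in control libraries. PTGS2 (COX-2), the inducible cyclooxygenase, averaged 1.85 FPKM in LPS libraries and 0.363 FPKM in control libraries. ACOD1, which makes itaconate and is strongly induced in mouse macrophages, was below 1 FPKM in all 6 libraries and was not tested, with 0.182, 0.366 and 0.368 FPKM in LPS libraries and 0 in each control library. GCH1, which starts the synthesis of tetrahydrobiopterin, averaged 12.3 FPKM with LPS and 1.73 FPKM in control, and the hexokinase HK2 averaged 8.17 FPKM with LPS and 3.28 FPKM in control; both were chosen after their values were seen.

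The enzymes that fell most act on lipids and sugars. LTC4S, which makes leukotriene C4, had 3.66, 3.91 and 4.40 FPKM in LPS libraries and 35.5, 39.7 and 35.0 FPKM in control libraries. DHRS9, a dehydrogenase of retinoids and steroids, had 9.59, 9.18 and 9.62 FPKM in LPS libraries and 71.3, 76.2 and 68.8 FPKM in control libraries. B3GNT7, a glycosyltransferase that extends sugar chains, had 1.28, 1.03 and 1.04 FPKM in LPS libraries and 15.6, 18.6 and 17.1 FPKM in control libraries. Every LPS library was below every control library for these enzymes, by 9.22-fold for LTC4S, 7.62-fold for DHRS9 and 15.3-fold for B3GNT7. LTC4S fell while PTGS2, at a far lower level, rose, so the leukotriene and prostanoid enzymes named here moved in opposite directions. Of 63 anabolic and translation enzymes tested 40 (63.5%) rose and 7 (11.1%) fell, against 26.6% and 40.1% of all genes tested. No member fell at least 2-fold, against 5.38% of all genes. Rises of at least 2-fold were 3 (4.8%), near the 6.68% of all genes. The 3 were WARS, the tryptophanyl-tRNA synthetase known to respond to interferon (32.0 FPKM in LPS libraries and 9.85 FPKM in control libraries), the nucleolar helicase DDX21 (80.9 FPKM with LPS and 36.5 FPKM in control) and the RNA methyltransferase NSUN2 (52.7 FPKM with LPS and 25.3 FPKM in control). QARS and DARS, the synthetases for glutamine and aspartate, fell by 1.72-fold and 1.46-fold, and METTL14, a subunit of the m6A methyltransferase, fell by 1.43-fold.

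Of 176 kinases and kinase subunits tested 60 (34.1%) rose and 64 (36.4%) fell, against 26.6% and 40.1% of all genes tested. With median-of-ratios scaling 77 rose and 49 fell, so which count is the larger depends on the scaling. At least 2-fold, 18 (10.2%) rose, against 6.68% of all genes tested, and 8 (4.5%) fell, near the 5.38% of all genes. SRC, the founding member of the Src family, had 25.7, 31.2 and 33.1 FPKM in LPS libraries and 1.63, 1.76 and 1.79 FPKM in control libraries. SGK1, a kinase downstream of PI3K, had 13.98, 14.9 and 15.65 FPKM in LPS libraries and 0.148, 0.141 and 0.112 FPKM in control libraries. MAP4K1 (HPK1), a kinase of blood cells, had 3.47, 3.69 and 2.57 FPKM in LPS libraries and 13.4, 14.4 and 13.9 FPKM in control libraries. TEC, the founding member of another tyrosine kinase family, averaged 3.48 ± 0.724 FPKM in LPS libraries and 13.5 ± 0.723 FPKM in control libraries (SD, n = 3 each). Thus SRC and SGK1 were higher, and MAP4K1 and TEC lower, in each LPS library than in any control library. MTOR, given whatever its value, averaged 10.8 FPKM in LPS libraries and 8.66 FPKM in control libraries, a rise of 1.24-fold.

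Of 92 phosphatases tested 46 rose and 33 (35.9%) fell, against rises of 26.6% and falls of 40.1% over all genes tested. At least 2-fold, 12 rose and 4 (4.3%) fell, the falls near the 5.38% of all genes tested. DUSP6, which switches off ERK, had 32.9, 37.1 and 34.9 FPKM in LPS libraries and 4.25, 4.38 and 4.53 FPKM in control libraries. DUSP2, another MAP kinase phosphatase, averaged 27.9 FPKM in LPS libraries and 4.41 FPKM in control libraries, and the receptor-type phosphatase PTPRE averaged 14.4 FPKM with LPS and 2.44 FPKM in control. PTPRF (LAR), a receptor-type phosphatase, had 8.34, 7.85 and 7.96 FPKM in LPS libraries and 36.8, 36.6 and 35.9 FPKM in control libraries. The 2 receptor-type phosphatases thus moved in opposite directions, PTPRE by 5.90-fold upwards and PTPRF by 4.52-fold downwards. The other falls of at least 2-fold were PTP4A3 (PRL-3; 2.55 FPKM in LPS libraries and 11.05 FPKM in control libraries), the cofilin phosphatase SSH3 (11.1 FPKM with LPS and 29.6 FPKM in control) and PTPN22, a lymphoid and myeloid phosphatase chosen after its values were seen (0.601 FPKM with LPS and 3.24 FPKM in control).

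Regulators of G proteins and cyclic nucleotides rose in 48 (49.0%) and fell in 31 (31.6%) of 98 tested. Over all genes tested 26.6% rose and 40.1% fell. At least 2-fold, 17 (17.3%) rose, against 6.68%, and 5 (5.1%) fell, near the 5.38% of all genes tested. RGS16, which speeds up the inactivation of G protein alpha subunits, had 42.4, 54.6 and 55.5 FPKM in LPS libraries and 0.912, 0.975 and 0.999 FPKM in control libraries. RGS1, of the same family, had 6.30, 8.51 and 9.06 FPKM in LPS libraries and 0.0414, 0.0466 and 0.0453 FPKM in control libraries. ARHGAP31, which inactivates RAC and CDC42, averaged 6.65 FPKM in LPS libraries and 0.257 FPKM in control libraries. LPS replicate 4 was the lowest of its group for both RGS genes and still far above control. RASGRP2, which activates the small GTPase RAP1, had 7.45, 6.10 and 6.51 FPKM in LPS libraries and 41.0, 43.1 and 44.1 FPKM in control libraries. RASGRP4, an activator of RAS, averaged 0.980 FPKM in LPS libraries and 5.47 FPKM in control libraries, and the cAMP phosphodiesterase PDE7A averaged 14.2 FPKM with LPS and 41.4 FPKM in control. PDE4B, a cAMP phosphodiesterase chosen after its values were seen, averaged 4.56 FPKM in LPS libraries and 0.324 FPKM in control libraries, so it rose while PDE7A fell. The remaining falls of at least 2-fold, also chosen after their values were seen, were ARHGAP15 (4.93 FPKM with LPS and 11.2 FPKM in control) and PDE7B (0.655 FPKM with LPS and 2.36 FPKM in control).

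The ubiquitin and ISG15 system rose in 73 (44.8%) and fell in 46 (28.2%) of 163 tested, against 26.6% and 40.1% of all genes tested. At least 2-fold, 23 (14.1%) rose and 2 (1.2%) fell, against 6.68% and 5.38%. USP18, which removes ISG15 and dampens the interferon receptor, had 41.5, 45.5 and 42.2 FPKM in LPS libraries and 1.15, 1.56 and 2.28 FPKM in control libraries. SOCS3, a feedback inhibitor of cytokine receptors, had 36.2, 44.0 and 46.6 FPKM in LPS libraries and 1.41, 1.22 and 1.07 FPKM in control libraries. ISG15 and the protease that removes it thus both rose, with fold changes of 30.8 for ISG15 and 25.9 for USP18. The 2 that fell at least 2-fold were RNF5, a ubiquitin ligase of the endoplasmic reticulum membrane (31.8 FPKM in LPS libraries and 65.3 FPKM in control libraries), and PELI2, a ligase of the pellino family chosen after its values were seen (1.17 FPKM with LPS and 4.68 FPKM in control). MYLIP, a ligase for the LDL receptor, fell by 2.03-fold in mean FPKM and the conjugating enzyme UBE2Q2 by 1.93-fold.

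Of 110 proteases and protease inhibitors tested 56 (50.9%) rose and 46 (41.8%) fell, against 26.6% and 40.1% of all genes tested, so the share of falls was near that of all genes. At least 2-fold, 26 (23.6%) rose and 14 (12.7%) fell, against 6.68% and 5.38%. MMP9, a gelatinase, had 98.4, 107 and 110.4 FPKM in LPS libraries and 0, 0 and 0.0533 FPKM in control libraries. ADAMDEC1, a secreted metalloprotease of macrophages, had 49.0, 49.6 and 49.6 FPKM in LPS libraries and 0.163, 0.0787 and 0.153 FPKM in control libraries. SERPINB9, which inhibits granzyme B, had 7.46, 9.73 and 9.61 FPKM in LPS libraries and 0.0551, 0.0776 and 0.0151 FPKM in control libraries. These genes were at or below 0.163 FPKM in every control library. SERPINB2 and SERPINB10, of the same inhibitor family as SERPINB9, did the opposite. So did F13A1, which is in the list but is neither of that family nor a protease. SERPINB2 (PAI-2; ENSG00000197632, GRCh38 chr18:63871692-63903890, plus strand), an inhibitor of urokinase, had 0.680, 0.379 and 0.337 FPKM in LPS libraries and 33.8, 32.04 and 33.2 FPKM in control libraries. SERPINB10 (bomapin), a protease inhibitor expressed in blood cell precursors, had 0.566, 0.227 and 0.274 FPKM in LPS libraries and 13.1, 12.1 and 13.8 FPKM in control libraries. F13A1, the catalytic subunit of coagulation factor XIII, had 0.157, 0.157 and 0.210 FPKM in LPS libraries and 10.6, 9.83 and 9.97 FPKM in control libraries. In each case the LPS libraries were below 1 FPKM, and the log2 fold changes were -4.54 (SE 0.088) for SERPINB2, -3.38 (SE 0.10) for SERPINB10 and -3.24 (SE 0.062) for F13A1.

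Signal-induced transcription factors rose in 77 (62.6%) and fell in 26 (21.1%) of 123 tested, against 26.6% and 40.1% of all genes tested. Their median log2 fold change was 0.51. At least 2-fold, 42 (34.1%) rose and 3 (2.4%) fell, against 6.68% and 5.38% of all genes tested. BCL3, a nuclear IkB protein, had 55.6, 58.6 and 62.4 FPKM in LPS libraries and 1.37, 1.38 and 0.825 FPKM in control libraries. It was below 1.5 FPKM in every control library and above 53 FPKM in every LPS library. The NF-kB subunits rose less than BCL3, with NFKB2 at 104.7 FPKM in LPS libraries and 7.88 FPKM in control libraries, RELB at 43.9 FPKM with LPS and 4.66 FPKM in control and NFKB1 at 41.6 FPKM with LPS and 8.80 FPKM in control. IRF7, which amplifies the interferon response, averaged 71.1 FPKM in LPS libraries and 5.67 FPKM in control libraries. These 4 were chosen after their values were seen.

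IRF8, an interferon regulatory factor of monocytes and dendritic cells, went the other way, with 66.2, 67.2 and 65.9 FPKM in LPS libraries and 157, 153 and 147 FPKM in control libraries, a fall of 2.29-fold. EPAS1 (HIF-2 alpha), a hypoxia-inducible factor, had 3.85, 3.72 and 3.36 FPKM in LPS libraries and 14.8, 14.3 and 13.7 FPKM in control libraries. CEBPE, a factor of late granulocyte differentiation chosen after its values were seen, was the other fall of at least 2-fold, with 0.708 FPKM in LPS libraries and 3.02 FPKM in control libraries. FOSL2, a member of the AP-1 family, averaged 17.3 FPKM in LPS libraries and 31.7 FPKM in control libraries. The interferon regulatory factors named here thus divided, IRF7 being higher and IRF8 lower with LPS. NR1H3 (LXR alpha), the oxysterol receptor, averaged 3.45 FPKM in LPS libraries and 6.13 FPKM in control libraries, a fall of 1.78-fold. CIITA, which drives MHC class II genes, was below 0.5 FPKM in all 6 libraries and was not tested.

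Of 156 lineage and developmental factors tested 43 (27.6%) rose and 78 fell, against 26.6% and 40.1% of all genes tested, so the share of rises was near that of all genes. At least 2-fold, 11 (7.1%) rose, near the 6.68% of all genes, and 15 (9.6%) fell, against 5.38%. Median-of-ratios scaling gave 53 rising and 65 falling. BCL6, a transcriptional repressor active in B cells and macrophages, had 20.2, 22.8 and 23.1 FPKM in LPS libraries and 0.698, 0.786 and 0.723 FPKM in control libraries. POU2F2 (OCT2), an octamer-binding factor, had 39.1, 39.1 and 39.5 FPKM in LPS libraries and 2.68, 2.88 and 2.79 FPKM in control libraries. RUNX3 had 58.8, 69.9 and 72.03 FPKM in LPS libraries and 17.02, 16.5 and 15.5 FPKM in control libraries. RUNX2, of the same family, had 5.45, 6.17 and 6.41 FPKM in LPS libraries and 23.0, 24.3 and 24.3 FPKM in control libraries. RUNX3 was thus higher by 4.09-fold and RUNX2 lower by 3.97-fold, with no overlap between groups for either.

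GFI1 and MYB, factors of progenitor cells, were among those that fell, as was MXD4, which is not named here as such a factor. GFI1, a repressor needed for granulocyte development, had 33.7, 28.9 and 27.0 FPKM in LPS libraries and 97.7, 95.6 and 96.3 FPKM in control libraries. MYB, which maintains progenitors, had 30.9, 28.6 and 26.8 FPKM in LPS libraries and 75.9, 74.1 and 77.1 FPKM in control libraries. MXD4, a partner of MAX that opposes MYC, had 4.25, 4.42 and 4.53 FPKM in LPS libraries and 16.4, 18.3 and 16.9 FPKM in control libraries. GFI1 fell by 3.23-fold, MYB by 2.63-fold and MXD4 by 3.91-fold. MYC averaged 48.3 FPKM in LPS libraries and 66.7 FPKM in control libraries, and CEBPA, a granulocyte and monocyte factor, averaged 87.6 FPKM with LPS and 144.6 FPKM in control. SPI1 (PU.1), the master factor of myeloid cells, had 262.5, 264 and 270.5 FPKM in LPS libraries and 135, 139.5 and 130.3 FPKM in control libraries, so it rose by 1.97-fold while MYB and CEBPA fell.

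Chromatin enzymes and cofactors rose in 29 (21.2%) and fell in 61 (44.5%) of 137 tested, shares near the 26.6% and 40.1% of all genes tested. At least 2-fold, 4 rose and 4 fell (2.9% each), against 6.68% and 5.38% of all genes tested. With median-of-ratios scaling 41 rose and 49 fell. KDM6B (JMJD3), an eraser of the repressive mark H3K27me3, had 5.53, 5.79 and 6.24 FPKM in LPS libraries and 1.67, 1.69 and 1.94 FPKM in control libraries. NCOA7, a coactivator, averaged 25.8 FPKM in LPS libraries and 2.80 FPKM in control libraries, and the corepressor NRIP1 (RIP140) averaged 12.1 FPKM with LPS and 4.51 FPKM in control. The other rise was PRMT1, an arginine methyltransferase chosen after its values were seen, at 74.5 FPKM in LPS libraries and 33.4 FPKM in control libraries. KDM5B, an eraser of H3K4 methylation, averaged 4.04 FPKM in LPS libraries and 10.7 FPKM in control libraries, the bromodomain protein BRD3 averaged 5.94 FPKM with LPS and 14.9 FPKM in control, and KDM4A, an eraser of H3K9 and H3K36 methylation, averaged 18.4 FPKM with LPS and 41.2 FPKM in control. CBX8, a Polycomb protein chosen after its values were seen, averaged 2.95 FPKM in LPS libraries and 7.35 FPKM in control libraries. Of the lysine demethylases named, KDM6B was thus higher and KDM5B and KDM4A lower with LPS.

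Negative regulators of inflammatory mRNA and signalling rose in 33 (76.7%) and fell in 6 of 43 tested. Over all genes tested 26.6% rose and 40.1% fell. Rises of at least 2-fold numbered 20 (46.5%) and such falls 1 (2.3%), against 6.68% and 5.38% of all genes tested. The median log2 fold change of the list was 0.98, against -0.09 over all genes tested. The largest rise among those eligible was BTG2, an antiproliferative protein that promotes deadenylation of mRNA, with 366, 404 and 425 FPKM in LPS libraries and 8.01, 10.5 and 8.53 FPKM in control libraries. ZFP36L2, which binds AU-rich elements and promotes mRNA decay, had 80.8, 78.2 and 77.4 FPKM in LPS libraries and 194, 200.4 and 185 FPKM in control libraries. BTG2 was thus higher by 44.2-fold with no overlap, and ZFP36L2 was the 1 regulator that fell at least 2-fold, by 2.45-fold. TOB2, of the same family as BTG2, fell by 1.28-fold and TOB1 by 1.16-fold; the call of TOB1 (limma adjusted p = 0.0117) was lost with median-of-ratios scaling (adjusted p = 0.133). CISH, HNRNPD and TSC22D1, chosen after their values were seen, were the other falls, by 1.78-fold, 1.13-fold and 1.53-fold, and HNRNPD also lost its call with that scaling (adjusted p = 0.0979).

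**Figure D4:**
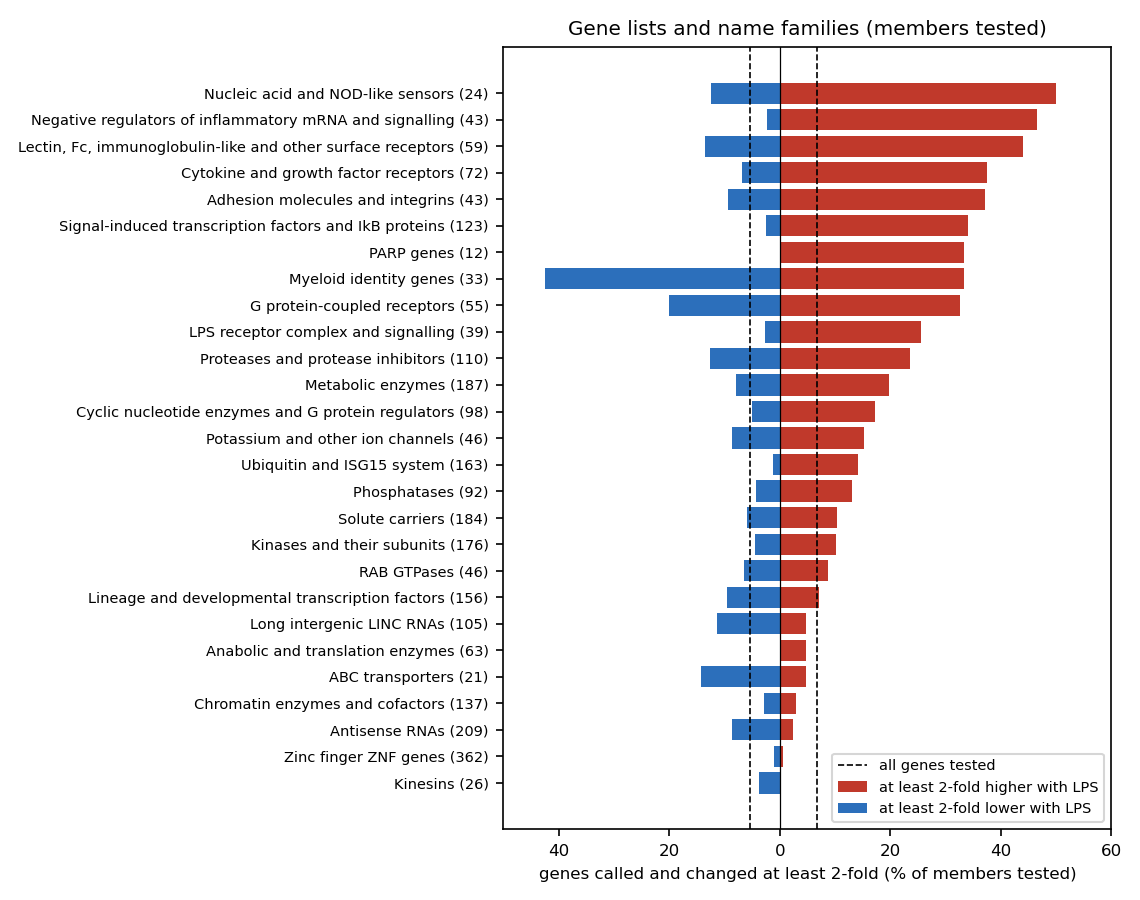
Share of tested members (in percent, number tested in brackets) called at least 2-fold higher (red, right) or at least 2-fold lower (blue, left) with LPS in each gene list or name family, with dashed lines at 6.68% and 5.38% for all genes tested. Cytokines and chemokines and the markers of other cell types are not drawn. Of the lists drawn, sensors have the highest share on the right, and G protein-coupled receptors stand at 32.7% higher and 20.0% lower, and zinc finger genes under 2% on each side.

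Transporters and channels changed one by one. Of 184 solute carriers 70 (38.0%) rose and 69 (37.5%) fell, against 26.6% and 40.1% of all genes tested. At least 2-fold, 19 (10.3%) rose and 11 (6.0%) fell, against 6.68% and 5.38%. The shares of falls were near those of all genes. SLC2A6, a member of the glucose transporter family, had 78.5, 83.3 and 79.7 FPKM in LPS libraries and 5.61, 6.16 and 6.26 FPKM in control libraries. SLC43A2, a carrier of large neutral amino acids, averaged 9.69 FPKM in LPS libraries and 0.990 FPKM in control libraries. SLC25A10, the mitochondrial dicarboxylate carrier, fell to 2.66 FPKM in LPS libraries, against 9.25 FPKM in control libraries, and the choline transporter SLC44A1 fell to 10.03 FPKM, against 25.7 FPKM. Of 21 ABC transporters 7 (33.3%) rose and 10 (47.6%) fell. ABCA1, the cholesterol exporter, averaged 8.85 FPKM in LPS libraries and 4.65 FPKM in control libraries and ABCF1 averaged 19.96 FPKM with LPS and 13.3 FPKM in control, while ABCA7 averaged 3.35 FPKM with LPS and 10.98 FPKM in control and ABCA2 averaged 8.54 FPKM with LPS and 23.5 FPKM in control. The ABCA members named thus divided, with ABCA1 higher and ABCA7 and ABCA2 lower in every LPS library. Of 46 ion channel genes 19 (41.3%) rose and 20 (43.5%) fell, or 22 and 17 with median-of-ratios scaling. KCNJ2 (Kir2.1), an inward rectifier potassium channel, had 10.5, 11.3 and 11.6 FPKM in LPS libraries and 0.132, 0.195 and 0.156 FPKM in control libraries. Within the ATP-gated P2X channels, P2RX7 had 14.5, 15.2 and 15.7 FPKM in LPS libraries and 1.57, 2.06 and 1.97 FPKM in control libraries, and P2RX1 had 2.14, 2.04 and 1.85 FPKM in LPS libraries and 8.92, 9.10 and 9.53 FPKM in control libraries. P2RX7 was thus higher by 8.11-fold and P2RX1 lower by 4.57-fold. CACNA2D3, an auxiliary calcium channel subunit, fell to 0.516 FPKM in LPS libraries, against 5.53 FPKM in control libraries.

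Families formed from gene names ranged from strong to slight. The interferon-inducible PARP9 averaged 25.9 FPKM in LPS libraries and 1.78 FPKM in control libraries and PARP14 averaged 53.9 FPKM with LPS and 6.34 FPKM in control, while PARP8 averaged 17.3 FPKM with LPS and 33.3 FPKM in control and PARP4 averaged 22.4 FPKM with LPS and 27.8 FPKM in control. Of the 12 PARP genes 5 rose and 5 fell (41.7% each), against 26.6% and 40.1% of all genes tested. The share of falls was thus near that of all genes. At least 2-fold, 4 (33.3%) rose, against 6.68%, and none fell, against 5.38%. Among 46 RAB GTPases, which direct vesicle traffic, 18 rose and 18 fell (39.1% each), against 26.6% and 40.1% of all genes tested. RAB39A averaged 17.5 FPKM in LPS libraries and 3.97 FPKM in control libraries and RAB8B averaged 23.5 FPKM with LPS and 7.50 FPKM in control, while RAB44 averaged 10.9 FPKM with LPS and 29.05 FPKM in control and RAB33A averaged 2.97 FPKM with LPS and 7.93 FPKM in control. Of 26 kinesins, the motors of microtubules, 3 rose and 16 fell, with KIF17 at 3.66 FPKM in LPS libraries and 15.7 FPKM in control libraries, the mitotic KIF20A at 15.9 FPKM with LPS and 26.95 FPKM in control, and KIF21B at 5.30 FPKM with LPS and 2.48 FPKM in control. KIF1C rose by 1.23-fold. Rises made 11.5% and falls 61.5% of the tested kinesins, against 26.6% and 40.1% of all genes tested, and KIF17 was the only one that fell at least 2-fold.

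Changes of the ZNF genes, mostly zinc finger transcription factors, were small. Of 362 tested 29 (8.0%) rose and 180 (49.7%) fell, against 26.6% and 40.1% of all genes tested, with a median log2 fold change of -0.20 against -0.09. At least 2-fold, 2 (0.6%) rose and 4 (1.1%) fell, against 6.68% and 5.38%. With median-of-ratios scaling 136 fell and 54 rose, so falls remained more frequent than rises. The 2 rises were ZNF697 (9.38 FPKM in LPS libraries and 1.68 FPKM in control libraries) and ZNF366 (DC-SCRIPT; 5.33 FPKM with LPS and 0.925 FPKM in control). Among the falls, ZNF438 averaged 6.27 FPKM in LPS libraries and 20.8 FPKM in control libraries and ZNF658 averaged 1.44 FPKM with LPS and 5.27 FPKM in control. ZNF genes share sequence with one another, so reads that fit several of them make single levels uncertain.

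The largest falls over the whole table included products of myeloid precursors. CTSG, a serine protease of azurophil granules (ENSG00000100448, GRCh38 chr14:24573522-24576260, minus strand), had 155, 135 and 140.0 FPKM in LPS libraries and 1363, 1388 and 1331 FPKM in control libraries. MS4A3, a membrane protein of granulocyte and monocyte precursors, had 3.00, 2.05 and 2.09 FPKM in LPS libraries and 69.4, 69.8 and 69.5 FPKM in control libraries. A further 2 granule proteases, chosen after their values were seen, were PRTN3, at 267.5 FPKM in LPS libraries and 1281 FPKM in control libraries, and ELANE, at 427 FPKM with LPS and 1415 FPKM in control. The granule genes remained above 100 FPKM in every LPS library, so they fell without becoming scarce. In bulk RNA, fewer cells with a transcript and less transcript per cell cannot be told apart. RET, a receptor tyrosine kinase of neural crest and some blood cells, had 10.4, 9.67 and 9.23 FPKM in LPS libraries and 81.7, 78.6 and 81.1 FPKM in control libraries. MYADM, a membrane protein of myeloid differentiation, averaged 2.89 FPKM in LPS libraries and 35.4 FPKM in control libraries, and SEL1L3 averaged 4.43 FPKM with LPS and 40.4 FPKM in control. NAPSB, an aspartic protease pseudogene, averaged 4.31 FPKM in LPS libraries and 39.99 FPKM in control libraries, and CASC10 averaged 3.19 FPKM with LPS and 30.8 FPKM in control. TXNIP, which binds thioredoxin and limits glucose uptake, had 79.5, 80.4 and 77.9 FPKM in LPS libraries and 215, 211 and 211 FPKM in control libraries. The falls of these named genes ran from 2.68-fold for TXNIP to 29.2-fold for MS4A3.

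**Figure D5:**
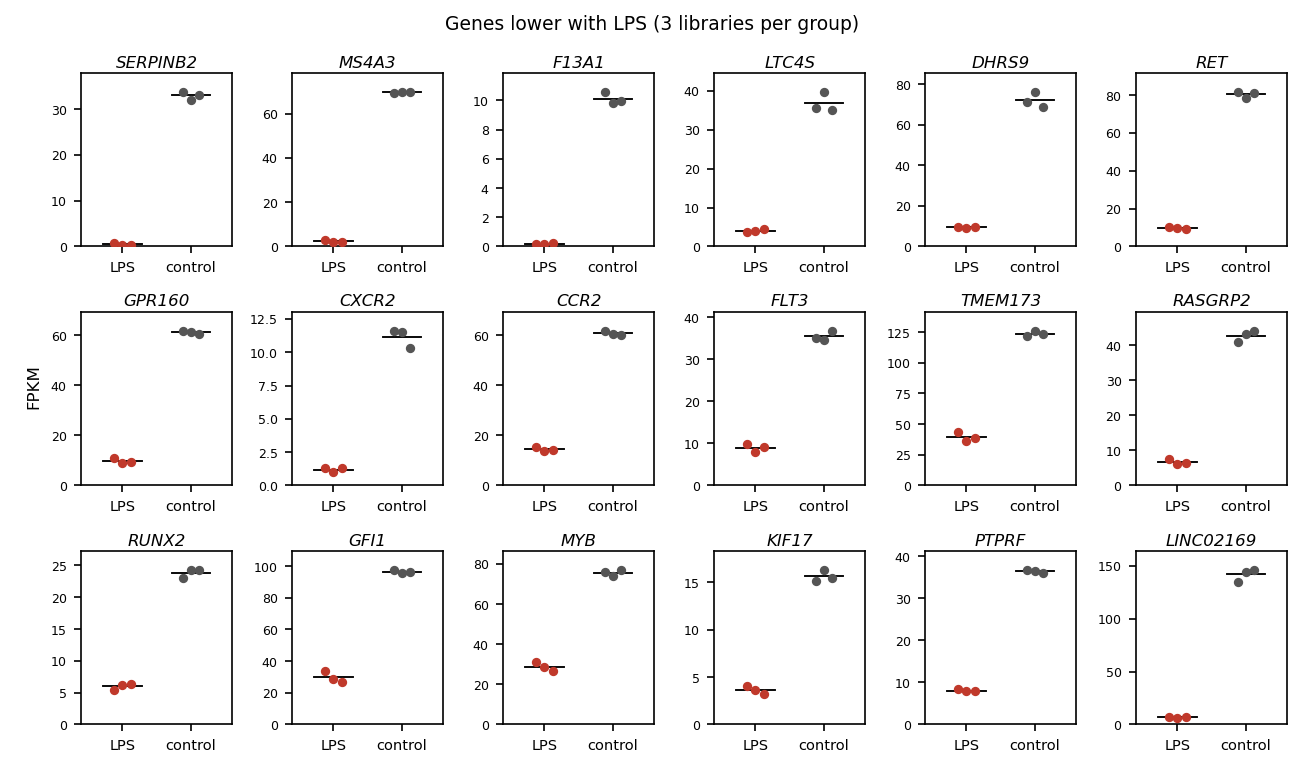
FPKM in each of 3 LPS libraries (red) and 3 control libraries (grey) for 18 genes lower with LPS, with the mean as a line and each axis starting at 0. In every panel all LPS points lie below all control points; GPR160, for example, is at 9.13 to 10.8 with LPS and at 60.4 to 61.7 in control.

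Myeloid identity genes moved in both directions. Of 33 tested 14 (42.4%) rose and 18 (54.5%) fell, against 26.6% and 40.1% of all genes tested. At least 2-fold, 11 (33.3%) rose and 14 (42.4%) fell, against 6.68% and 5.38%. The median log2 fold change was -0.36. The rising members include S100A12, a calcium-binding alarmin, at 85.8 FPKM in LPS libraries and 0.560 FPKM in control libraries, and S100A9, of the same family and chosen after its values were seen, at 1927 FPKM with LPS and 61.1 FPKM in control. CD14, CSF1R and SIGLEC1, genes of monocytes and macrophages, also rose, and CTSG, MS4A3, MYB, FLT3 and PRTN3, genes of precursors, fell. Genes of monocytes or macrophages outside this list fell too, by 4.20-fold for CCR2, 2.67-fold for TREM2 and 2.29-fold for IRF8, so such genes did not all move one way. LYZ (lysozyme), chosen after its values were seen, had 172, 152 and 150 FPKM in LPS libraries and 170.3, 170.4 and 167 FPKM in control libraries. It was not called (limma adjusted p = 0.111), with LPS replicate 4 the highest of all 6 libraries, and was called lower without that library (adjusted p = 0.00160). The other 9 of the 42 members in the table were not tested, among them the macrophage genes CD163, MARCO, MRC1, MSR1 and VSIG4.

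Several large rises belonged to none of the lists. IGFBP3, which binds insulin-like growth factors, had 297, 327 and 346.5 FPKM in LPS libraries and 0.174, 0.140 and 0.191 FPKM in control libraries (log2 fold change 8.12, SE 0.058). The interferon-stimulated genes IFI6 (1358 FPKM in LPS libraries and 22.3 FPKM in control libraries), IFI44 (91.7 FPKM with LPS and 0.415 FPKM in control) and MX1, an antiviral GTPase (67.0 FPKM with LPS and 0.530 FPKM in control), rose with it. OAS1, which makes the activator of RNase L and was chosen after its values were seen, averaged 42.9 FPKM in LPS libraries and 2.35 FPKM in control libraries. Each of these was above 40 FPKM in every LPS library.

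Of 438 genes annotated as lincRNA 71 (16.2%) rose and 200 (45.7%) fell, and of 597 annotated as antisense 76 (12.7%) rose and 218 (36.5%) fell, against 26.6% and 40.1% of all genes tested. Falls of lincRNA genes were thus near the share of all genes and those of antisense genes below it. At least 2-fold, 34 lincRNA genes (7.8%) rose and 59 (13.5%) fell, and 29 antisense genes (4.9%) rose and 56 (9.4%) fell, against 6.68% and 5.38%. The medians of their log2 fold changes were -0.27 for lincRNA and -0.21 for antisense genes, against -0.07 for protein-coding genes and -0.09 for all genes tested. LINC02169 had 7.34, 6.47 and 6.97 FPKM in LPS libraries and 135, 144 and 146 FPKM in control libraries, a fall of 20.5-fold. LINC00899 averaged 2.73 FPKM in LPS libraries and 9.86 FPKM in control libraries. LINC01547 went the other way with 25.2, 24.5 and 25.3 FPKM in LPS libraries and 2.89, 3.13 and 2.65 FPKM in control libraries, and LINC02081 averaged 5.96 FPKM with LPS and 1.58 FPKM in control. LINC02169 was thus lower, and LINC01547 higher, in each LPS library than in any control library. Of the 105 genes with a LINC name 17 (16.2%) rose and 53 (50.5%) fell, and with median-of-ratios scaling 19 rose and 44 fell. Of 209 genes named as antisense, whatever their annotated type, 21 (10.0%) rose and 105 (50.2%) fell. Among these, MMP2-AS1, annotated as lincRNA, averaged 7.09 FPKM in LPS libraries and 0.0250 FPKM in control libraries and ITGB2-AS1 averaged 30.5 FPKM with LPS and 2.74 FPKM in control, while DLEU7-AS1 averaged 0.651 FPKM with LPS and 6.53 FPKM in control and STARD4-AS1 averaged 1.06 FPKM with LPS and 6.11 FPKM in control. Whether counting used strand is not stated, so reads of an antisense gene and of its partner cannot be told apart.

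Genes that rose and fell also differed in structure. Of those that rose at least 2-fold 86.3% were protein-coding, against 72.4% of those that fell and 81.6% of all tested. The median exon length in GENCODE v29 was 4015 bases for genes that rose, 3367 bases for those that fell and 4304 bases for all. Median levels of genes that rose were 13.4 FPKM in LPS libraries and 1.86 FPKM in control libraries, and those of genes that fell were 2.16 FPKM in LPS libraries and 7.43 FPKM in control libraries. The typical gene that fell was thus at a moderate level in control cells and near 2 FPKM with LPS. Because the genes were chosen by these same values, the direction of these differences in level was fixed in advance.

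The 6 libraries were alike in depth, at 16218741 to 17666828 fragments in LPS libraries and 15641365 to 17615450 in control libraries, recovered from the FPKM values. Between 12458 and 12620 genes reached 1 FPKM in LPS libraries and between 12924 and 13056 in control libraries. Within a group every pair of libraries correlated at 0.990 or more across genes and differed by more than sampling noise, so all were counted separately. LPS replicate 4 was the lowest of its group in 61.1% of the genes that rose at least 2-fold and the highest in 55.5% of those that fell, by a median of -0.046 and 0.046 on the log2 scale. Without it 892 genes rose and 754 fell at least 2-fold. ACTB rose by 1.15-fold, and GAPDH, at 311 FPKM in LPS libraries and 298 FPKM in control libraries, was not called (limma adjusted p = 0.105), but was called higher without control replicate 2 (adjusted p = 0.0241). Markers of other cell types were low. Summed over 10 lymphocyte markers the level was 32.7 to 34.5 FPKM in LPS libraries and 20.0 to 25.9 FPKM in control libraries, of which NKG7 alone made 30.6 FPKM in LPS libraries and 17.5 FPKM in control libraries, and CD3G was at 0 in all 6 libraries. The sum of 15 epithelial markers was 7.23 to 8.87 FPKM with LPS and 6.88 to 8.14 FPKM in control, and that of 10 fibroblast and endothelial markers was 56.5 to 58.9 FPKM with LPS and 34.7 to 35.7 FPKM in control, nearly all from PECAM1. The sum of 9 neutrophil and erythroid markers was 8.01 to 10.1 FPKM with LPS and 34.8 to 36.2 FPKM in control, mostly from CSF3R, with FCGR3B and HBA1 at 0 in all 6 libraries. The part of other cell types in the results was not tested.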

How the data were processed

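The authors deposited 1 table of FPKM values for 34643 genes with 1 column per library, and each title gave its group. HISAT2 and StringTie with build GRCh38, after bcl2fastq and FastQC, are listed in the submitters' processing notes with no version. Use of strand and the treatment of shared reads are not stated there. Gene IDs were matched to GENCODE v29 (99.8% of the table). Multiplied by exon length and divided by the value of 1 fragment per library, 97.88 to 97.95% of the values in the 6 libraries were whole within 0.05, which gave depth. Such depths and floors cover counting error only.

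Tests used limma 3.58.1 (R 4.3.3), applied to log2(FPKM + 1) with 2 group means and eBayes with an intensity trend, over 13247 genes, with Benjamini-Hochberg adjustment over all of them. The members, the 17 role lists, the 9 name families and the tests were chosen with earlier results of these data known, and lists carry no test. The rule for named genes took called genes with no overlap between groups, a mean of at least 5 FPKM in 1 group, 1 row per symbol, no clone name, no Y-linked gene and no listed cytokine or chemokine. From these it took the 3 largest rises and falls of each role list, the 2 largest of each family and the 12 largest over all genes, plus 21 genes fixed by name. This gave 163 genes, not all of them printed, and 35 more were chosen after their values were seen; some genes the rule takes are not reported here. Promoter windows and chromosome positions of windows are from RefSeq on GRCh38.p14, with the first listed start of each gene. That start can differ from the gene position in the deposited table. Alternatives covered the pseudocount (0.1 and 0.5), the filter (none, or 5 FPKM), the scaling, a fit of all 9 libraries, no intensity trend, array weights, a threshold of 0.01, voom on recovered fragments and each library left out.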

Additional observations from a re-analysis of the deposited data

How the results depend on the processing

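No paired analysis was possible because the groups share no replicate numbers. Counts of called genes moved by over 1.5 times under 3 alternatives. With a pseudocount of 0.1, 1256 genes were at least 2-fold lower with LPS and 1090 at least 2-fold higher, and with voom on the recovered fragments 1338 were lower and 1108 higher, against 713 and 885, so the larger count was that of falls under both; a larger pseudocount shrinks the fold change of low genes by construction. With a filter at 5 FPKM, which leaves fewer genes to test, 5819 genes were called, 3239 of them lower and 421 at least 2-fold lower. Leaving out 1 library at a time gave 8138 to 8468 called genes, 3247 to 3381 higher, 4826 to 5087 lower, 880 to 903 at least 2-fold higher and 714 to 754 at least 2-fold lower. No named gene called in the main fit was called with the opposite sign under any alternative run. The log2 fold change of LYZ, which was not called, went from -0.104 to 0.0007 with median-of-ratios scaling. Besides the calls given for TOB1, HNRNPD, LYZ and GAPDH, TOB1 was not called at a threshold of 0.01, LYZ was called with voom (adjusted p = 0.0366) and GAPDH after quantile normalization (adjusted p = 2.71e-05) or median-of-ratios scaling (adjusted p = 0.00665). Of 64 counts over lists and families 22 moved by over 1.5 times with the filter at 5 FPKM, 8 without a filter, 2 at a threshold of 0.01 and 1 with median-of-ratios scaling (rising ZNF genes, 54 against 29). Depth limits the folds of genes with few or no fragments in 1 group, such as IDO1 and LY96.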
